A study of Mus musculus with 24 samples.

Results

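The nuclear-encoded subunits of the respiratory chain and of ATP synthase were taken by gene name. A protein-coding gene was a member when its GENCODE mouse symbol began with Nduf and then a, b, c, s or v (symbols beginning with Ndufaf, which name assembly factors, were left out), began with Uqcr, with Cox and a digit from 4 to 8 or with Atp5, or was Sdha, Sdhb, Sdhc, Sdhd, Cyc1 or Cycs. Of the 55487 genes listed in the count files, 88 were members: 38 of complex I, 4 of complex II, 9 of complex III with cytochrome c1, 1 gene of cytochrome c, 18 of complex IV and 18 of ATP synthase. They carried 87 symbols, because Atp5o had a second gene identifier. Ndufa4 and Ndufa4l2 were counted with complex I, by their symbols.

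In the inner mitochondrial membrane, complex I takes electrons from NADH and complex II, also a citric acid cycle enzyme, takes them from succinate; ubiquinone carries both streams to complex III, cytochrome c carries them on to complex IV, and complex IV hands them to oxygen. Complexes I, III and IV pump protons, and ATP synthase uses their return to make ATP. Most subunits are encoded in the nucleus and imported, a smaller set is encoded in mitochondrial DNA, and some complex IV subunits have isoforms that differ between striated muscle and other tissues.

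The study asked whether near-infrared light given before exercise changes gene expression in the tibialis anterior (TA), a fast hindlimb muscle, of wild-type C57BL/6J male mice aged 5 to 7 weeks. Poly(A)-selected RNA of the left TA was sequenced from 24 mice, 6 in each of 4 groups. All mice had the hair of the lower limbs removed under anesthesia. Sedentary control mice then stayed under anesthesia for 20 min with no light. Sedentary PBMT (photobiomodulation therapy) mice received 830 nm light over those 20 min, at 25 mW/cm2 to a fluence of 30 J/cm2. In both groups the muscle was taken 24 h later without a run. Fatigued control and fatigued PBMT mice were treated in the same ways, ran on a treadmill to exhaustion 24 h later for durations that differed between mice, and were killed after the run. The study reported longer runs on average in PBMT mice than in controls at that time. Light and run duration therefore differed together between the fatigued groups. No group received sham light or matched heat. All sedentary mice belonged to one sequencing project and all fatigued mice to another, so in every fatigued against sedentary comparison the run and the project cannot be told apart. The exercise protocol also held earlier acclimatization to the treadmill and an electric shock grid, and their part was not tested.

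Sequencing depth, as summed counts, was 43271093 to 46904076 in sedentary controls, 46327516 to 52775844 in sedentary PBMT mice, 56792327 to 68726155 in fatigued controls and 53122528 to 68566029 in fatigued PBMT mice. Levels are given as CPM, counts scaled to a common library size with TMM factors over all 24 mice, and levels of different genes are set side by side only per kilobase of merged exon length. Differences are log2 fold changes from edgeR's quasi-likelihood test, and adjusted p is its Benjamini-Hochberg value over all genes tested; a gene is called at an adjusted p under 0.05. The edgeR filter on low counts kept 84 members. Cox8c, a testis isoform, had no count in any mouse, which allows up to 0.0693 CPM in the smallest library (3 counts, counting error only). The second Atp5o identifier also had no count, but most of its sequence occurs in other genes, so its level is not known. Cox7b2 had 6 counts in all, in 3 mice, and Cox6b2 had 155 counts over the 24 mice.

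The tissue label was set against marker genes. The 7 fast skeletal muscle markers summed to 48773 ± 5567 CPM per kilobase in sedentary controls (SD, n = 6), or 46582 ± 1653 without replicate 4, with actin (Acta1) the most abundant on that scale. The 6 slow muscle markers summed to 12.0 ± 1.91 CPM per kilobase in the same mice, led by Atp2a2. Ucp1 of brown fat had no count in sedentary controls, Nppa of the heart reached at most 0.0217 CPM there, and Krt5 of skin averaged 0.0979 CPM. Other genes of these lists were detected. Brown fat markers, nearly all Cidea, summed to 0.728 ± 0.0979 CPM per kilobase there. Heart markers, led by Myh6, summed to 0.814 ± 0.231 and keratinocyte markers, led by Krt10, to 1.33 ± 0.616 CPM per kilobase. Other cell types of muscle tissue were present: endothelial markers summed to 34.3 ± 3.28 and red cell markers to 131 ± 41.6 CPM per kilobase. In bulk tissue, fewer cells of a kind and less RNA per cell cannot be told apart.

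Sedentary control replicate 4 stood apart from its group. The 13 mitochondrially encoded protein genes took 2.62% of its counts, against 14.3% to 15.6% in the other 5 sedentary controls. Of the 84 tested members, it lay below all of the other 5 controls in 33 and above all of them in 26. Its distance from their mean ran from -0.92 log2 for Cox7b to 1.08 for Cox6a1, and across members this distance had a Spearman correlation of 0.50 with the GC content of the transcript (a description over 84 genes of 1 library, which are not independent). Values of the sedentary controls include this mouse unless stated, and results that rested on it are given with and without it.

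**Figure D1:**
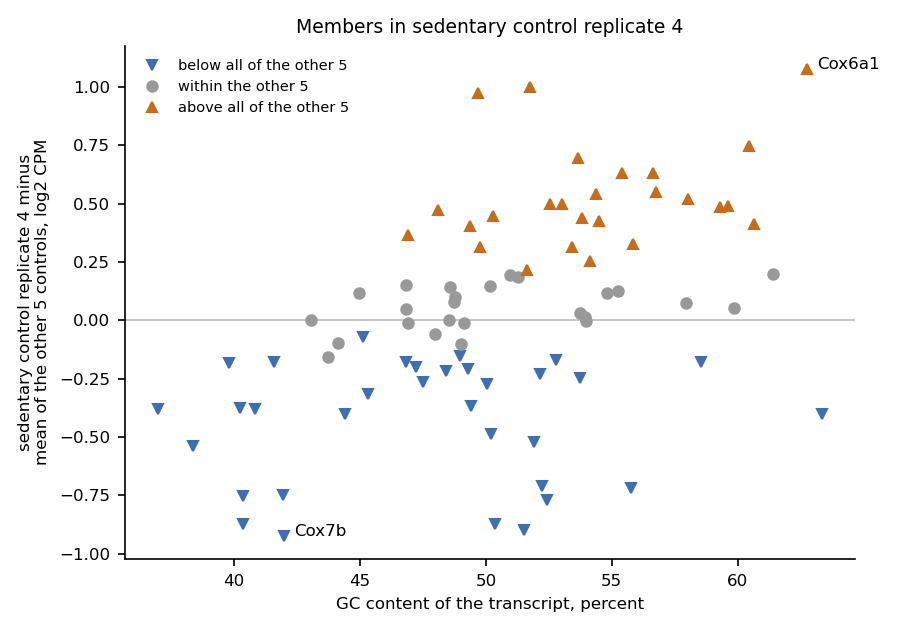
Each point is 1 of the 84 tested members, placed by the GC content of its transcript (percent) and by the log2 CPM of sedentary control replicate 4 minus the mean of the other 5 sedentary controls. Triangles pointing down mark the 33 members below all of the other 5, triangles pointing up the 26 above all of them, and circles the 25 within their range.

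Some members share sequence with other genes. In 45 of the 88 members at least 1 stretch of 50 bases also occurs in a transcript of another gene, and in 15 members over 10% of stretches do. Among those named in this report these are the second Atp5o identifier (89.8%), Cycs (25.9%), Ndufs3 (16.1%), Ndufb9 (15.6%), the first Atp5o identifier (14.0%), Cox7a2l (13.8%), Atp5g2 (38.3%) and Atp5g1 (10.2%). How reads that fit several genes were counted, and whether strand was used, is not stated, so these levels, and those of genes with an antisense partner, are uncertain.

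In sedentary controls the most abundant members per length were subunits of complex IV and ATP synthase. Cox6a2, the striated muscle isoform of a complex IV subunit, averaged 915 ± 71.6 CPM per kilobase (SD, n = 6). Atp5b and Atp5a1, the catalytic beta and the alpha subunit of ATP synthase, averaged 885 ± 69.8 and 841 ± 118 CPM per kilobase, within their spread of each other; with the longest transcript as length the means were 1957 and 986, and Cox4i1, at 1132, stood above Cox6a2. Complex II was led by the flavoprotein Sdha at 292 ± 10.1 CPM per kilobase and complex III by the iron-sulfur protein Uqcrfs1 at 441 ± 39.7, which came second there with the longest transcript as length. At the other end, Ndufb2, an accessory subunit of complex I, averaged 1.30 ± 0.230 CPM per kilobase and Cox4i2, the lung isoform of Cox4, 2.56 ± 0.891. The lowest tested subunit gene named Atp5 was Atp5s, at 6.49 ± 0.894 CPM per kilobase. Sdhc at 108 ± 9.42 and Uqcrq at 209 ± 21.8 CPM per kilobase were the lowest of complexes II and III.

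Where a subunit has alternative genes, 1 of them made up most of the family per length in sedentary controls. Cox4i1 held 99.6% of Cox4i, Cox6a2 97.7% of Cox6a, Cox6b1 nearly all of Cox6b and Cox8b, the muscle isoform, 95.8% of Cox8. The Cox7a family was shared between Cox7a1, its muscle isoform, at 74.0%, Cox7a2 at 16.3% and the supercomplex factor Cox7a2l at 9.65%. Cox7b held nearly all of its family, since Cox7b2 had no count in sedentary controls. Ndufa4, a subunit now placed with complex IV, held 97.3% beside Ndufa4l2, its hypoxia-induced paralog. Both stay with complex I in the counts, medians and sums of this report. Of the 3 genes that encode the same mature c subunit of ATP synthase, Atp5g3 held 64.2%, Atp5g1 22.0% and Atp5g2 13.8%; with the longest transcript as length, Atp5g1 held 10.6% and Atp5g2 14.2%, so the order of those 2 genes depended on the length used. In fatigued controls the Cox7a1 share was 71.5% and the Cox8b share 95.1%.

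Most calls within these genes lay between fatigued and sedentary mice. In control mice, 49 of the 84 tested members were called lower in the fatigued group (edgeR's quasi-likelihood test, adjusted p under 0.05), against 9.49% of all genes tested called lower; no member was called higher. All 84 log2 fold changes were negative (68 with each mouse's trend on transcript length removed), with a median of -0.29 against -0.012 over all genes. In 31 members every fatigued control lay below every sedentary control, against 3.63% of all genes. By complex, the members that fell were 20 of 38 in complex I, 3 of 4 in complex II, 5 of 9 in complex III, 0 of 1 for cytochrome c (0 also at an unadjusted p under 0.05 and by DESeq2; limma called Cycs, adjusted p = 0.0362), 10 of 15 in complex IV and 11 of 17 in ATP synthase. Median log2 fold changes were -0.26 in complex I, -0.28 in complex II, -0.33 in complex III, -0.33 in complex IV and -0.30 in ATP synthase.

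Without sedentary control replicate 4, 53 members were called lower, 46 of them among the 49, and the median was -0.28. By complex these were 21 in complex I, 3 in complex II, 6 in complex III, 10 in complex IV and 13 in ATP synthase. The count rested more on other mice: it was 24 without sedentary control replicate 3, the highest of its group in 58 members, and 26 without fatigued control replicate 6. It was also 26 (25 lower and Cox8a higher) when each mouse's trend on transcript length was removed, and then the median was -0.17 against -0.036 over all genes. Of the 49 members, 17 were called lower in each of the 32 alternatives run: Ndufa5, Ndufb2, Ndufb5, Ndufb9, Ndufb11, Ndufc1, Ndufc2, Sdhb, Sdhd, Uqcrfs1, Uqcrq, Cox6c, Atp5e, Atp5j2, Atp5k, Atp5l and Atp5mpl (a list drawn up after the values were seen).

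In PBMT mice, 29 of the 84 members were called lower in the fatigued group, against 12.7% of all genes tested called lower, and none was called higher. The median log2 fold change was -0.18 against 0.0021 over all genes, and 75 members were negative. The groups did not overlap in 5 of the 84 members, Ndufb2, Cox7b, Atp5k, Atp5mpl and Atp5s. This share is near the 5.20% of all genes. By complex the counts were 10 in complex I, 1 in complex II, 4 in complex III, 6 in complex IV and 8 in ATP synthase, with 0 for cytochrome c (0 also unadjusted and by DESeq2 and limma). Median log2 fold changes were -0.14 in complex I, -0.11 in complex II (-0.068 without fatigued PBMT replicate 5), -0.24 in complex III, -0.21 in complex IV and -0.23 in ATP synthase. Of the 29, 12 were called lower in each of the 32 alternatives: Ndufa6, Ndufb2, Ndufb9, Ndufb11, Sdhd, Uqcrfs1, Cox6c, Cox7b, Atp5c1, Atp5j2, Atp5k and Atp5mpl. Without sedentary control replicate 4, which enters only the shared estimate of spread and scaling here, 37 members were called lower. The control and PBMT comparisons use different mice, and the difference between them is the same contrast as the difference of the PBMT effects, given further on, in which no member was called.

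Summed over a complex, the same order of groups appeared in every complex. Sums are CPM per kilobase, as mean ± SD of 6 mice, and were not tested. Complex I summed to 5249.9 ± 481 in sedentary controls, 4710.4 ± 389 in sedentary PBMT mice, 4377 ± 72.8 in fatigued controls and 4253 ± 427 in fatigued PBMT mice. Complex II summed to 845 ± 60.2 in sedentary controls, 770.1 ± 64.3 in sedentary PBMT mice, 729 ± 26.5 in fatigued controls and 700.5 ± 65.5 in fatigued PBMT mice. Complex III summed to 2552 ± 229 in sedentary controls, 2282 ± 218 in sedentary PBMT mice, 2056 ± 109.6 in fatigued controls and 1982 ± 226 in fatigued PBMT mice. Sedentary controls had the highest mean and fatigued PBMT mice the lowest in each. Cytochrome c summed to 102 ± 12.5 in sedentary controls, 96.7 ± 14.5 in sedentary PBMT mice, 90.3 ± 12.2 in fatigued controls and 86.0 ± 12.2 in fatigued PBMT mice. Complex IV summed to 4909 ± 445 in sedentary controls, 4494 ± 410.2 in sedentary PBMT mice, 3937 ± 121 in fatigued controls and 3866 ± 370.5 in fatigued PBMT mice. ATP synthase summed to 4365 ± 342 in sedentary controls, 4005 ± 359.8 in sedentary PBMT mice, 3671 ± 165 in fatigued controls and 3511 ± 399 in fatigued PBMT mice. Here too the means ran from sedentary controls down to fatigued PBMT mice. Over all members, sedentary controls lay between 16649 and 20644, sedentary PBMT mice between 13685 and 18104, fatigued controls between 14235 and 15258 and fatigued PBMT mice between 12587 and 16327. The fatigued controls did not overlap the sedentary controls in complexes I, II, III and IV, in ATP synthase or over all members, where they also had the smallest SD, but did overlap in cytochrome c. The fatigued control mean over all members was 0.824 times the sedentary control mean. Without sedentary control replicate 4 the sedentary control means were 5165 in complex I, 844 in complex II, 2548 in complex III, 106 for cytochrome c, 4897 in complex IV and 4326 in ATP synthase, in the same order of groups. Over all members the mean was then 17886 ± 1668 (5 mice), and the fatigued controls still lay below it in every mouse.

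**Figure D2:**
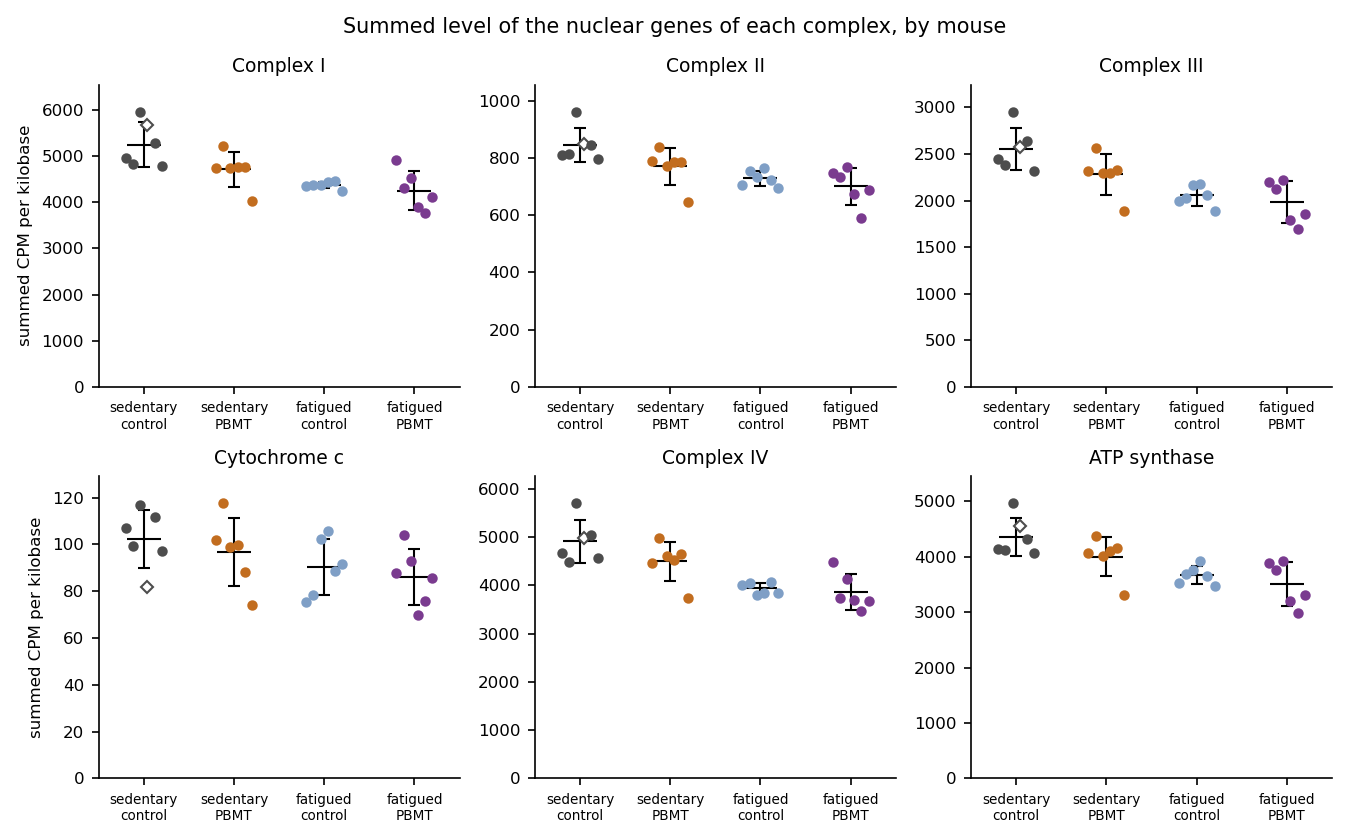
Each panel shows 1 complex, with the 4 groups on the horizontal axis and the summed CPM per kilobase of its nuclear genes on the vertical axis; points are mice, the horizontal mark is the mean and the bar the SD (n = 6), and the open diamond is sedentary control replicate 4. In complexes I to IV and ATP synthase the fatigued controls lie below all sedentary controls.

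**Figure D3:**
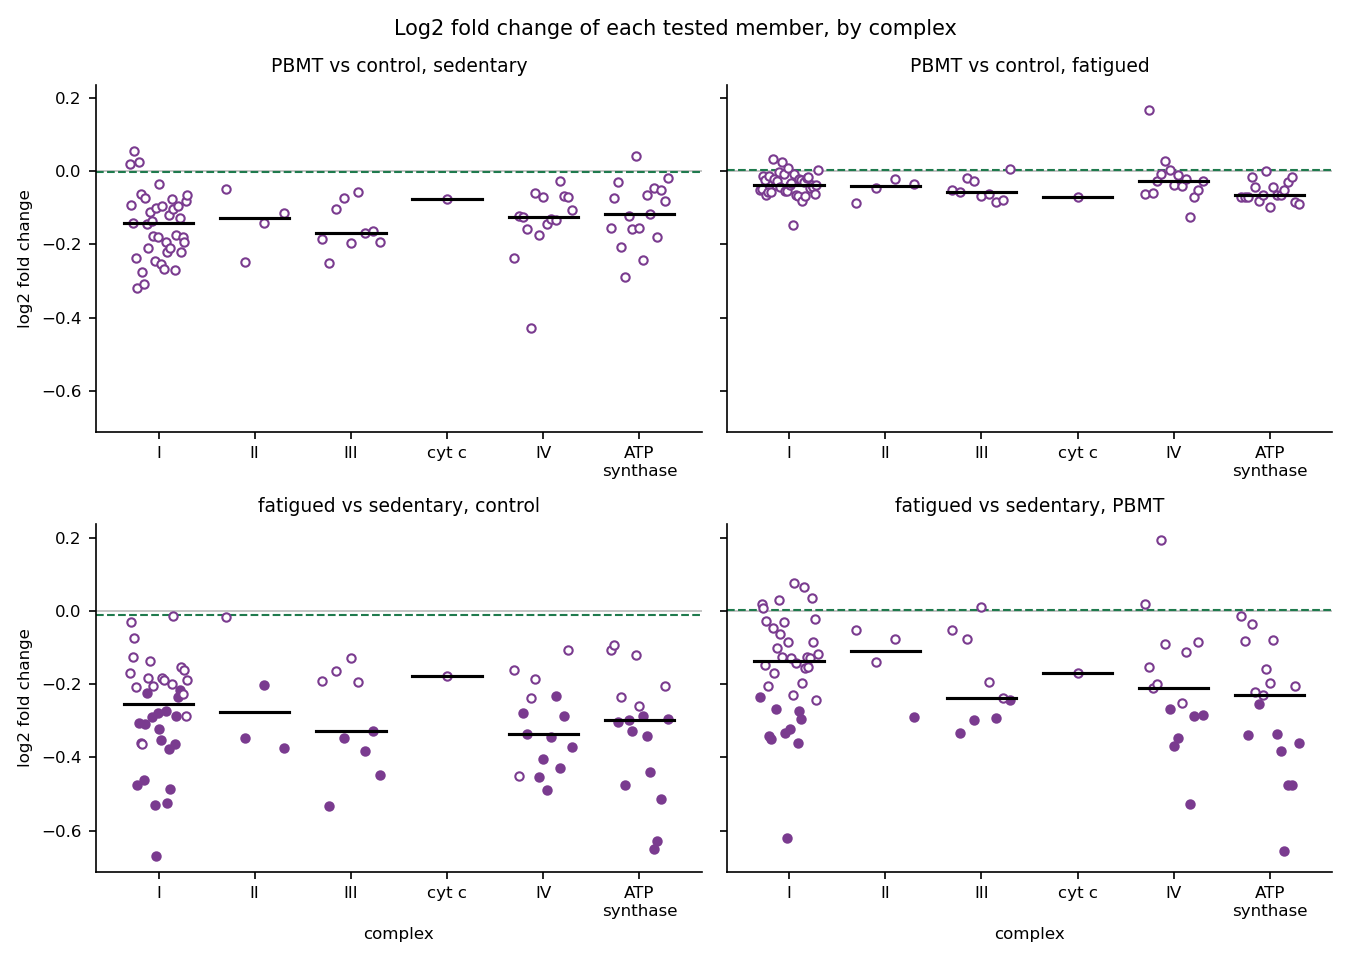
Each point is a tested member, grouped by complex on the horizontal axis, with its log2 fold change on the vertical axis in 4 comparisons. Filled points have an edgeR adjusted p under 0.05, black lines are the medians of the complexes and the dashed line is the median of all genes tested; 49 points are filled for fatigued against sedentary control mice, 29 for PBMT mice and 0 in both comparisons of PBMT with control.

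In complex I the smallest p in both comparisons was that of Ndufb2 (ENSMUSG00000002416, chr6:39592574-39603382, GRCm38), an accessory subunit of the membrane arm. Its lowest, median and highest values were 6.35, 6.85 and 9.73 CPM in sedentary controls, 5.81, 6.65 and 8.34 in sedentary PBMT mice, 4.50, 4.63 and 4.73 in fatigued controls and 3.96, 4.29 and 5.21 in fatigued PBMT mice. Every fatigued mouse of either treatment lay below every sedentary mouse. The log2 fold change from sedentary to fatigued was -0.67 ± 0.10 (SE, adjusted p = 7.32e-05) in control mice and -0.62 ± 0.10 (SE, adjusted p = 9.69e-05) in PBMT mice. Ndufb11 (ENSMUSG00000031059, chrX:20615326-20617619), another membrane arm subunit, measured 286, 314 and 439 CPM in sedentary controls, 241, 284 and 305 in sedentary PBMT mice, 220.4, 227 and 248 in fatigued controls and 197, 219 and 272 in fatigued PBMT mice. The fatigued controls lay below all sedentary controls, while the highest fatigued PBMT mouse reached into the range of the sedentary PBMT mice. Ndufb11 fell by 0.53 ± 0.091 on the log2 scale in control mice (adjusted p = 0.000223) and by 0.33 ± 0.091 in PBMT mice (adjusted p = 0.00805).

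Ndufa5 (ENSMUSG00000023089, chr6:24518666-24528013), a subunit of the peripheral arm, measured 125, 140.2 and 192 CPM in sedentary controls, 99.3, 119.9 and 141 in sedentary PBMT mice, 105, 109 and 113 in fatigued controls and 93.5, 103 and 129.7 in fatigued PBMT mice. Sedentary controls stood above fatigued controls in every mouse, and the other 3 groups overlapped one another. Its log2 fold change from sedentary to fatigued was -0.46 ± 0.092 (SE, adjusted p = 0.000996) in control mice and -0.17 ± 0.092 (SE, adjusted p = 0.181) in PBMT mice, where it was called by limma alone (adjusted p = 0.0319). The nuclear core subunits of the peripheral arm, through which electrons pass, gave 1 call among 7 in control mice by edgeR and DESeq2 and 4 by limma. The edgeR count is near the 9.49% of all genes tested that were called lower. Without sedentary control replicate 4, edgeR called 3 of these core subunits, Ndufs3, Ndufs1 and Ndufv2 (adjusted p = 0.0133, 0.0464 and 0.00119). The call with all mice was Ndufs3, at a log2 fold change of -0.36 ± 0.092 (SE, adjusted p = 0.00734) and with no overlap; with the length trend removed that call was lost (adjusted p = 0.0686).

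Complex II has 4 nuclear genes and no mitochondrially encoded one. Sdhb (ENSMUSG00000009863, chr4:140961203-140979193), its iron-sulfur subunit, measured 420.1, 487 and 592 CPM in sedentary controls, 329.8, 419 and 482 in sedentary PBMT mice, 353, 398 and 408 in fatigued controls and 321, 381 and 422 in fatigued PBMT mice. Fatigued controls lay below all sedentary controls and within the range of sedentary PBMT mice. The log2 fold change of Sdhb was -0.35 ± 0.090 (SE, adjusted p = 0.00855) in control mice and -0.14 ± 0.090 (SE, adjusted p = 0.266) in PBMT mice, where only the fit with the GC trend removed called it (adjusted p = 0.0346). Sdhd (ENSMUSG00000000171, chr9:50596357-50603812), a membrane anchor, measured 219.5, 272 and 339 CPM in sedentary controls, 198, 261 and 295 in sedentary PBMT mice, 199, 211 and 226 in fatigued controls and 187, 207 and 227 in fatigued PBMT mice. The fatigued and sedentary ranges of Sdhd overlapped in both treatments. In control mice they did so only through sedentary control replicate 4, at 219.5 CPM, while the other 5 sedentary controls started at 264. Sdhd had a log2 fold change of -0.37 ± 0.087 (SE, adjusted p = 0.00372) in control mice and -0.29 ± 0.087 (SE, adjusted p = 0.0145) in PBMT mice. Without that mouse edgeR gave -0.43 (adjusted p = 0.000355) in control mice. Sdha, the flavoprotein, measured 1144, 1207 and 1267 CPM in sedentary controls and 1139.6, 1169 and 1265 in fatigued controls, overlapped in all groups and was not called.

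In complex III, Uqcr10 (ENSMUSG00000059534, chr11:4701973-4704342), a small accessory subunit, measured 187, 213 and 247 CPM in sedentary controls, 138, 183 and 210.1 in sedentary PBMT mice, 139.7, 148 and 156 in fatigued controls and 118, 142 and 167 in fatigued PBMT mice. Fatigued controls lay below all sedentary controls; the PBMT groups overlapped. Uqcr10 had a log2 fold change of -0.53 ± 0.087 (SE, adjusted p = 0.000127) in control mice and -0.33 ± 0.087 (SE, adjusted p = 0.00572) in PBMT mice. With the length trend removed both calls were lost (adjusted p = 0.102 and 0.233). Uqcrq (ENSMUSG00000044894, chr11:53427922-53430831), a further small subunit, measured 337, 381 and 436 CPM in sedentary controls, 263, 341 and 371 in sedentary PBMT mice, 267, 276 and 309 in fatigued controls and 252, 280.2 and 323 in fatigued PBMT mice. It too separated the control groups completely, at a log2 fold change of -0.45 ± 0.079 (SE, adjusted p = 0.000305). Uqcrfs1 (ENSMUSG00000038462, chr13:30540308-30545362), the iron-sulfur protein that passes electrons to cytochrome c1, measured 546, 591 and 676 CPM in sedentary controls, 448, 543 and 581 in sedentary PBMT mice, 393, 458 and 510.4 in fatigued controls and 357, 430.2 and 511 in fatigued PBMT mice. The sedentary controls lay above all fatigued controls. Uqcrfs1 had a log2 fold change of -0.38 ± 0.086 (SE, adjusted p = 0.00285) in control mice and -0.29 ± 0.086 (SE, adjusted p = 0.0128) in PBMT mice. The core protein Uqcrc1 and cytochrome c1 (Cyc1) were not called in either comparison. Cycs (ENSMUSG00000063694, chr6:50562563-50566538), the mobile carrier cytochrome c, measured 278, 351 and 398 CPM in sedentary controls, 253, 338 and 399.8 in sedentary PBMT mice, 257, 307 and 359 in fatigued controls and 238, 295 and 354 in fatigued PBMT mice, with every group overlapping, and its log2 fold change in control mice was -0.18 ± 0.11 (SE, adjusted p = 0.268).

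In complex IV, Cox6c (ENSMUSG00000014313, chr15:35925886-35938246) measured 403, 440.0 and 517 CPM in sedentary controls, 379.9, 436 and 455 in sedentary PBMT mice, 309, 335 and 379.6 in fatigued controls and 293, 326 and 385 in fatigued PBMT mice. All fatigued controls lay below all sedentary controls, and the highest fatigued PBMT mouse passed the lowest sedentary PBMT mouse. Cox6c had a log2 fold change of -0.40 ± 0.074 (SE, adjusted p = 0.000415) in control mice and -0.37 ± 0.074 (SE, adjusted p = 0.000592) in PBMT mice. Cox7a1 (ENSMUSG00000074218, chr7:30184144-30186078), the muscle isoform, measured 279.7, 321 and 369 CPM in sedentary controls, 221, 289 and 339 in sedentary PBMT mice, 219, 221 and 252 in fatigued controls and 201, 223 and 256 in fatigued PBMT mice. The control groups did not overlap, while the PBMT groups did. Cox7a1 had a log2 fold change of -0.49 ± 0.088 (SE, adjusted p = 0.000360) in control mice and -0.35 ± 0.088 (SE, adjusted p = 0.00447) in PBMT mice, no longer called with the length trend removed (adjusted p = 0.257 and 0.197). Cox6b1, which faces the intermembrane space, had a log2 fold change of -0.45 ± 0.086 (SE, adjusted p = 0.000644) in control mice, also lost with the length trend removed (adjusted p = 0.138).

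Cox7b (ENSMUSG00000031231, chrX:106015700-106022450) measured 203, 372 and 442 CPM in sedentary controls, 278, 357 and 399 in sedentary PBMT mice, 245, 264 and 285 in fatigued controls and 209.9, 240.3 and 278 in fatigued PBMT mice. The lowest sedentary control was replicate 4, far below the next; the PBMT groups did not overlap. Without that mouse the log2 fold change in control mice was -0.55 (adjusted p = 5.62e-05). Cox7b had a log2 fold change of -0.53 ± 0.12 (SE, adjusted p = 0.00236) in PBMT mice and -0.43 ± 0.12 (SE, adjusted p = 0.0156) in control mice, where the call was lost without sedentary control replicate 3 (adjusted p = 0.0636) and with the length trend removed (adjusted p = 0.120). Cox6a1, the isoform found outside striated muscle, measured 11.0, 12.1 and 26.7 CPM in sedentary controls, 8.94, 10.3 and 14.0 in sedentary PBMT mice, 9.66, 11.6 and 17.8 in fatigued controls and 9.20, 12.0 and 16.1 in fatigued PBMT mice. The highest sedentary control, again replicate 4, stood far above the other 5. Its log2 fold change in control mice was -0.24 ± 0.19 (SE, adjusted p = 0.401) with that mouse and 0.022 (adjusted p = 0.930) without it, and -0.37 without fatigued control replicate 5. With the length trend removed it was 0.070 (adjusted p = 0.812), so its direction depended on that mouse and on the length trend. The larger regulatory subunit Cox4i1 and the dominant Cox6a2 were not called.

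ATP synthase held the member with the smallest p in both comparisons, Atp5mpl (ENSMUSG00000021290, chr12:111961375-111966977), a small membrane subunit. It measured 159, 173 and 201 CPM in sedentary controls, 145, 171 and 183 in sedentary PBMT mice, 118, 124 and 126 in fatigued controls and 107, 119 and 139 in fatigued PBMT mice. Every fatigued mouse lay below every sedentary mouse of either treatment. Atp5mpl had a log2 fold change of -0.51 ± 0.071 (SE, adjusted p = 1.65e-05) in control mice and -0.47 ± 0.071 (SE, adjusted p = 2.11e-05) in PBMT mice. Atp5l (ENSMUSG00000038717, chr9:44912557-44920742), the g subunit of the membrane domain, measured 299, 324 and 394 CPM in sedentary controls, 229, 295 and 349 in sedentary PBMT mice, 203, 216 and 230.5 in fatigued controls and 189, 205 and 242 in fatigued PBMT mice. The control groups were apart and the PBMT groups overlapped. Atp5l had a log2 fold change of -0.63 ± 0.087 (SE, adjusted p = 2.02e-05) in control mice and -0.48 ± 0.087 (SE, adjusted p = 0.000251) in PBMT mice, the latter lost with the GC trend removed (adjusted p = 0.0620). Atp5k (ENSMUSG00000050856, chr5:108433244-108434448), the e subunit that joins pairs of ATP synthases, measured 128, 196 and 273 CPM in sedentary controls, 154, 193 and 230.5 in sedentary PBMT mice, 119, 127 and 134 in fatigued controls and 104, 121 and 144 in fatigued PBMT mice. The PBMT groups were apart. The control groups overlapped only through sedentary control replicate 4, at 128 CPM, while the other 5 sedentary controls started at 184. Atp5k had a log2 fold change of -0.65 ± 0.12 (SE, adjusted p = 0.000488) in control mice, or -0.75 (adjusted p = 1.07e-05) without sedentary control replicate 4, and -0.65 ± 0.12 (SE, adjusted p = 0.000267) in PBMT mice.

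In the catalytic domain of ATP synthase Atp5c1 was called in both comparisons, and Atp5b and Atp5a1 were called in neither. Atp5c1, the rotating gamma subunit, measured 581, 796 and 882 CPM in sedentary controls, 643, 778 and 800.1 in sedentary PBMT mice, 592, 637 and 671 in fatigued controls and 491, 610.2 and 677 in fatigued PBMT mice. All 4 groups overlapped, and the lowest sedentary control was replicate 4, without which the log2 fold change in control mice was -0.38 (adjusted p = 0.000758). The other 5 sedentary controls started at 789 CPM, above all fatigued controls. Atp5c1 had a log2 fold change of -0.34 ± 0.089 (SE, adjusted p = 0.00585) in PBMT mice and -0.30 ± 0.089 (SE, adjusted p = 0.0182) in control mice, the latter lost without fatigued control replicate 6 (adjusted p = 0.0607) or sedentary control replicate 3 (adjusted p = 0.0752). Atp5b measured 3475, 3600.5 and 4237 CPM in sedentary controls, 3037, 3575 and 3847 in sedentary PBMT mice, 3310.0, 3513 and 3809.8 in fatigued controls and 2866, 3388 and 3756 in fatigued PBMT mice. The groups overlapped throughout, and the log2 fold change in control mice was -0.093 ± 0.077 (SE, adjusted p = 0.428), or -0.057 without sedentary control replicate 4 and -0.061 without replicate 3 of that group. Atp5a1 had a log2 fold change of -0.11 ± 0.087 (SE, adjusted p = 0.419) in the same comparison, or -0.029 without replicate 4. Across the whole chain, 8 of 21 subunits listed as catalytic or electron-carrying were called lower in fatigued controls (median log2 fold change -0.20) and 41 of the 63 other tested members (median -0.30). The share of all genes tested called lower was 9.49%. The list of 21 is a loose one: it also held Uqcrc1, Cox4i1, Cox5a and Cox5b, which carry no electrons themselves. The first set has the longer transcripts, with a median merged exon length of 2178 against 1251 bases over the tested genes. With the length trend removed the counts were 6 of 21 and 19 of 63, at medians of -0.19 and -0.17, and without sedentary control replicate 4 they were 10 and 43.

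**Figure D4:**
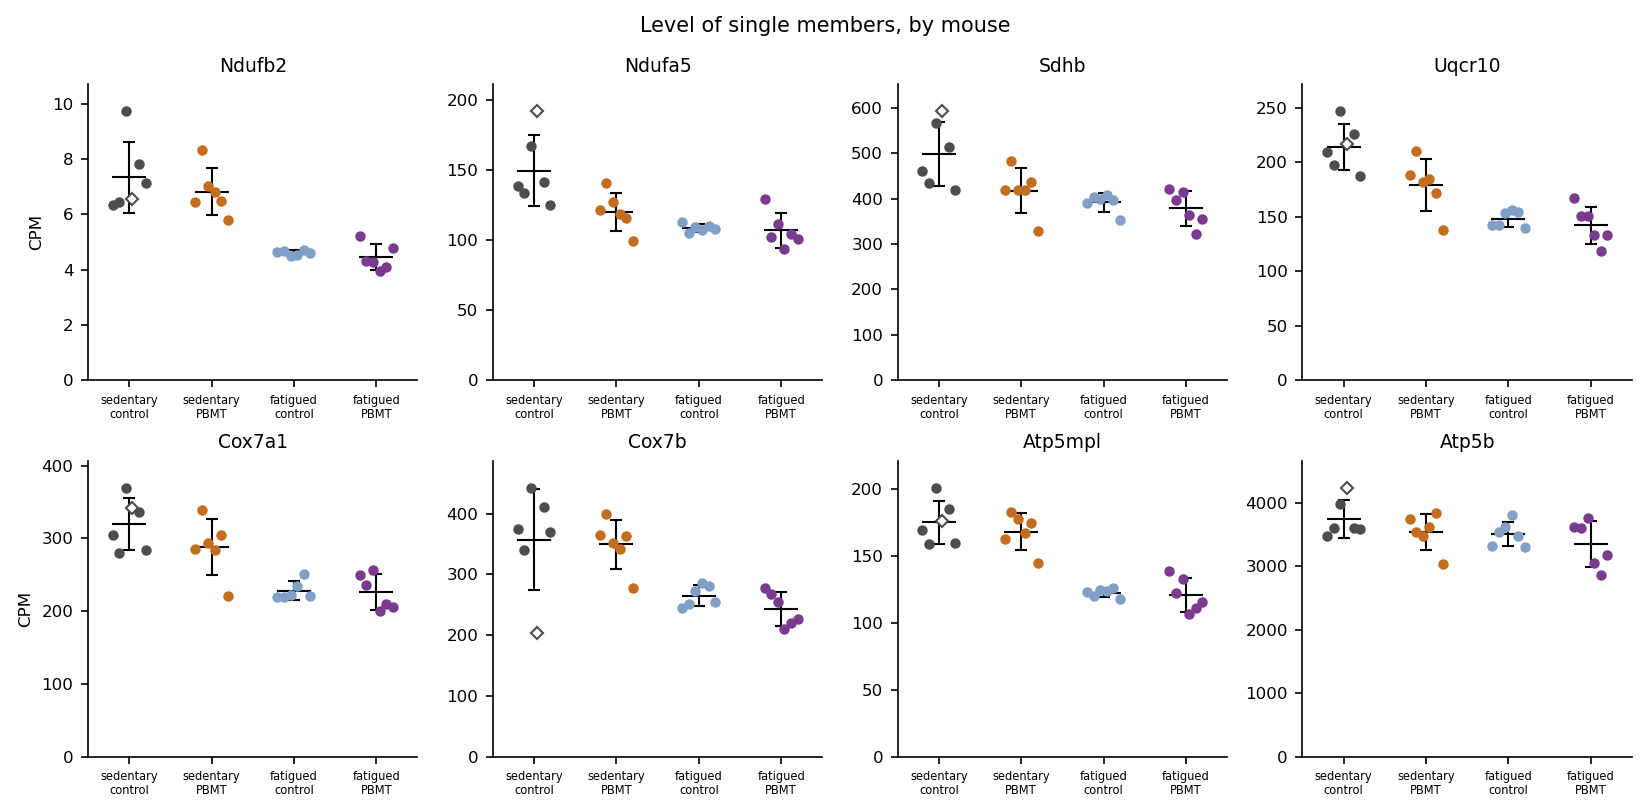
Each panel shows the CPM of 1 member on the vertical axis for the 4 groups on the horizontal axis; points are mice, the horizontal mark is the mean and the bar the SD (n = 6), and the open diamond is sedentary control replicate 4. In Ndufb2 and Atp5mpl all fatigued mice lie below all sedentary mice, in Cox7b the open diamond is the lowest sedentary control, and in Atp5b the groups overlap.

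PBMT against control addresses the study's main question, within 1 sequencing project each time. In sedentary mice, 0 of 84 members were called by edgeR, against 0.0282% of all genes tested, and 0 by DESeq2 and by limma; no member had groups that did not overlap, against 0.275% of all genes lower without overlap. At an unadjusted p under 0.05, 15 members were lower by edgeR, 17 by DESeq2 and 26 by limma, against 4.30% of all genes by edgeR, and none was higher. The log2 fold change was negative in 80 of 84 members, with a median of -0.13 against -0.0019 over all genes. Of the 15, complex I held 8, complex III 3, complex IV 2, complex II and ATP synthase 1 each. Medians were -0.14 in complex I, -0.13 in complex II, -0.17 in complex III, -0.12 in complex IV and -0.12 in ATP synthase.

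The smallest p among members in this comparison belonged to Ndufa5, with the values given above. Sedentary PBMT and sedentary control mice overlapped in Ndufa5, and its log2 fold change was -0.31 ± 0.10 (SE, adjusted p = 0.474). Uqcr10 came to -0.25 ± 0.092 (SE, adjusted p = 0.583). Ndufs3, a core subunit of complex I, came to -0.27 ± 0.10 (SE, adjusted p = 0.580). Sdhb came to -0.25 ± 0.10 (SE, adjusted p = 0.607) and Cox4i1 to -0.24 ± 0.10 (SE, adjusted p = 0.639), or -0.14 without sedentary control replicate 4, none of them past the threshold. Cox6a1 had the largest log2 fold change, -0.43 ± 0.19 (SE, adjusted p = 0.639), and it rested on sedentary control replicate 4, without which it was -0.18 (adjusted p = 0.588). Without that mouse the count of members was still 0 by edgeR, with 16 lower at an unadjusted p under 0.05 and a median of -0.14.

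Single mice moved this shift. Sedentary PBMT replicate 6 was the lowest of its group in 80 of 84 members and replicate 2 the highest in 74. Without replicate 6, 3 members had an unadjusted p under 0.05 and the median was -0.081, and without sedentary control replicate 3 the count was 5 and the median -0.083. Without sedentary PBMT replicate 6 the medians were -0.078 in complex II, -0.063 in complex IV and -0.056 in ATP synthase, and without sedentary control replicate 3 they were -0.072, -0.072 and -0.058. Each of these lay nearer to 0 than with all mice. The count was 30 without sedentary PBMT replicate 2, 9 without replicate 5 of that group and 27 without sedentary control replicate 6. With all 24 mice in a single model it was 31, still with 0 called. With the length trend removed, 4 members had an unadjusted p under 0.05 and the median was -0.059.

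In fatigued mice, 0 of 84 members were called for PBMT against control by edgeR, DESeq2 and limma, against 0% of all genes tested by edgeR. At an unadjusted p under 0.05 the count was 0 by each of the 3 tools, against 0.501% of all genes lower by edgeR. The log2 fold change was negative in 76 members, with a median of -0.043 against 0.0041 over all genes. That median was -0.081, -0.065, -0.017 and -0.013 without fatigued PBMT replicates 1, 3, 4 and 5 in turn, and 4 members were lower at an unadjusted p under 0.05 without replicate 1. The smallest p was that of Cox7b, at -0.13 ± 0.076 (SE, adjusted p = 1.00), and its groups overlapped. For the difference between the PBMT effects of fatigued and sedentary mice, 0 members were called by edgeR, DESeq2 and limma, against 0.00662% of all genes tested. At an unadjusted p under 0.05, 1 member was higher by edgeR and by DESeq2 and 0 by limma, against 2.95% of all genes higher by edgeR. That member was Ndufa5, with a difference of 0.29 ± 0.13 (SE, adjusted p = 0.946) on the log2 scale. Cox6a1 differed by 0.43 ± 0.26 (SE, adjusted p = 0.946), or by 0.17 without sedentary control replicate 4. The median difference over members was 0.093 against 0.017 over all genes, and 0.0017 with the length trend removed. It was 0.061 without fatigued PBMT replicate 3, 0.049 without sedentary PBMT replicate 6 and 0.047 without sedentary control replicate 3. The count higher at an unadjusted p under 0.05 was at most 6, without sedentary PBMT replicate 2, and 0 without sedentary PBMT replicates 5 or 6, fatigued PBMT replicates 1 or 3 or sedentary control replicates 3 or 4.

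Transcript length and GC content moved with these results. By their longest transcript members are short, with a median of 1026 bases against 3170.0 over all genes tested. Across all genes, Spearman's rho between log2 fold change and length was 0.235 for fatigued against sedentary control mice, 0.325 for PBMT against control in sedentary mice and 0.0662 for fatigued against sedentary PBMT mice; these describe genes, which are not independent replicates. With GC content in place of length, rho was 0.190, -0.306 and 0.316 in the same order, and median GC content was 50.2% in members and 49.7% over all genes tested. Other protein-coding genes within the members' middle range of lengths (748 to 1825 bases) had a median log2 fold change of -0.059 in fatigued against sedentary control mice, with 9.39% called lower. In PBMT mice their median was 0.041, with 7.48% called lower, and for PBMT in sedentary mice it was -0.079.

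The 13 mitochondrially encoded protein genes, which supply the other subunits of complexes I, III, IV and ATP synthase, summed to 113654 ± 10329 CPM per kilobase in sedentary PBMT mice, 81534 ± 5404 in fatigued controls and 81729 ± 3388 in fatigued PBMT mice. Sedentary controls summed to 114166 ± 5913 without replicate 4 (5 mice) and to 98431 ± 38904 with it. In control mice 7 of the 13 were called lower in the fatigued group, at a median log2 fold change of -0.53, and without replicate 4 all of the 13 were, at -0.69. In PBMT mice 7 of the 13 fell, at a median of -0.57 with all 13 free of overlap, and 13 when sedentary control replicate 4 was left out of the fit. For PBMT in sedentary mice the median log2 fold change was 0.19 with replicate 4 and -0.022 without it, and edgeR, DESeq2 and limma each called 0 of the 13 in that comparison, with 0 at an unadjusted p under 0.05 when replicate 4 was kept.

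Genes that build the complexes were looked at by lists, beside the 9.49% of all genes tested that were called lower in control mice and the 12.7% in PBMT mice. In fatigued against sedentary control mice, assembly factors called lower numbered 2 of 14 for complex I, 3 of 4 for complex II, 2 of 6 for complex III, 6 of 20 for complex IV and 3 of 5 for ATP synthase, with none higher; the share was 14.3% for complex I. Of the 77 mitochondrial ribosomal protein genes, which serve translation inside the organelle, 28 were called lower (36.4%), at a median log2 fold change of -0.18. The 81 cytosolic ribosomal protein genes gave 14 lower (17.3%) at a median of -0.086, which turned to 0.059 with the length trend removed. The 17 citric acid cycle genes gave 2 lower (11.8%, near the share over all genes), Dld and Mdh2, at a median of -0.15. Without sedentary control replicate 4, the counts lower were 33 for mitochondrial ribosomal proteins, 16 for cytosolic ones, 6 for the citric acid cycle, and 4, 4, 3, 8 and 3 for the assembly of complexes I to IV and ATP synthase. In fatigued against sedentary PBMT mice, assembly factors called lower numbered 4 of 14 for complex I, 2 of 4 for complex II, 1 of 6 for complex III, 5 of 20 for complex IV and 2 of 5 for ATP synthase. The count for complex III was near the 12.7% of all genes. The cytosolic ribosomal protein genes there gave 7 lower (8.64%) and 1 higher at a median of 0.015, so their median had the other sign. In PBMT mice 8 of 77 mitochondrial ribosomal protein genes were called lower, 10.4% (15 when sedentary control replicate 4 was left out of the fit) and 3 of 17 citric acid cycle genes, Idh3a, Dld and Sucla2 (7 when it was left out).

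Of all genes tested, 9.10% were called higher in fatigued against sedentary control mice and 14.1% in PBMT mice, beside the shares called lower given above. Among 13 transcriptional regulators of the members, 3 rose and 3 fell from sedentary to fatigued in control mice (4 and 3 without sedentary control replicate 4), and 4 rose and 4 fell in PBMT mice. Ppargc1a, the coactivator PGC-1alpha, ran from 30.9 to 43.9 CPM in sedentary controls, 29.8 to 62.1 in sedentary PBMT mice, 52.2 to 261 in fatigued controls and 57.7 to 304 in fatigued PBMT mice. Fatigued controls all stood above the sedentary controls, with a wide spread, and the PBMT groups overlapped. Ppargc1a had a log2 fold change of 2.10 ± 0.34 (SE, adjusted p = 0.000229) in control mice and 2.05 ± 0.34 (SE, adjusted p = 0.000161) in PBMT mice. Ppara, a nuclear receptor for fatty acids, separated fatigued from sedentary mice in every mouse of both treatments and rose by 0.94 on the log2 scale in control mice (adjusted p = 0.000411) and 1.05 in PBMT mice (adjusted p = 7.36e-05). Its relative Ppard rose by 0.42 in control mice, with overlap (adjusted p = 0.00131), and by 0.46 in PBMT mice, without (adjusted p = 0.000326). The coactivator Pprc1 rose in PBMT mice, by 0.33 (adjusted p = 0.0193) with overlap, a call lost with the GC trend (adjusted p = 0.220) or the length trend removed (adjusted p = 0.0825).

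Tfam, which packages mitochondrial DNA and starts its transcription, was lower in every fatigued mouse than in every sedentary mouse. Its log2 fold change was -0.23 ± 0.048 (SE, adjusted p = 0.00154) in control mice and -0.27 ± 0.048 (SE, adjusted p = 0.000152) in PBMT mice. Its partner Tfb2m, with overlap in both treatments, had -0.25 ± 0.068 (SE, adjusted p = 0.0106) and -0.25 ± 0.068 (SE, adjusted p = 0.00779), both lost with the GC trend removed (adjusted p = 0.0785 and 0.156). Gabpa, an ETS factor, fell in PBMT mice without overlap, with -0.33 ± 0.077 (SE, adjusted p = 0.00288). The coactivator Ppargc1b, with overlap in both treatments, had -0.47 ± 0.15 (SE, adjusted p = 0.0286) in control mice and -0.44 ± 0.15 (SE, adjusted p = 0.0290) in PBMT mice. Without sedentary control replicate 4 the first was -0.29. That call was lost without fatigued control replicates 3 or 4 or sedentary control replicates 3 or 4 (adjusted p = 0.0747, 0.0649, 0.0547 and 0.0826), by limma (0.0651) and with the replicate block (0.0557). The second was lost without fatigued PBMT replicates 1 or 5 or sedentary PBMT replicates 1, 3 or 5 (adjusted p = 0.0710, 0.0537, 0.0674, 0.0530 and 0.0592). Nrf1, Gabpb1, Esrra, Esrrg and Yy1 were not called in either comparison. For PBMT against control, edgeR, DESeq2 and limma each called 0 of the 13 in sedentary and in fatigued mice, with 0 at an unadjusted p under 0.05 except 1 by limma in sedentary mice.

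Of 9 genes that exchange energy or protons across the mitochondrial membranes, 1 rose and 1 fell in control mice, and 2 rose and 1 fell in PBMT mice. Of all genes tested, 9.10% were called higher and 9.49% lower in control mice, and 14.1% and 12.7% in PBMT mice. The counts in control mice and the count lower in PBMT mice were near these shares. Slc25a4, the muscle ATP-ADP carrier, had a log2 fold change of -0.28 ± 0.079 (SE, adjusted p = 0.0137) in control mice, with no overlap. In PBMT mice Vdac3, an outer membrane channel, had -0.17 ± 0.056 (SE, adjusted p = 0.0230), with overlap. That call was lost with no filter on low counts (adjusted p = 0.0955) and without fatigued PBMT replicates 4, 5 or 6 or sedentary PBMT replicates 1, 3 or 5 (adjusted p from 0.0595 to 0.0704), and its log2 fold change turned to 0.055 with the GC trend removed. The uncoupling protein Ucp2 had 0.57 ± 0.16 (SE, adjusted p = 0.0153) in control mice, with overlap, and 1.27 ± 0.16 (SE, adjusted p = 4.45e-06) in PBMT mice, without. Ucp3, the skeletal muscle uncoupling protein, ran from 137 to 201 CPM in sedentary controls, 50.7 to 143 in sedentary PBMT mice, 187 to 336 in fatigued controls and 129.7 to 336 in fatigued PBMT mice. Sedentary PBMT mice were the lowest group, and their range met those of sedentary controls and of fatigued PBMT mice at its upper end. From sedentary to fatigued Ucp3 rose by 1.18 ± 0.23 (SE, adjusted p = 0.000680) in PBMT mice. For PBMT in sedentary mice it was -0.83 ± 0.21 (SE, adjusted p = 0.337) by edgeR, and DESeq2 called it (adjusted p = 0.0109).

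Some markers of fiber and cell types were also called between fatigued and sedentary mice. The shares of all genes tested called higher were 9.10% in control mice and 14.1% in PBMT mice. In control mice 4 of 7 fast muscle markers were called higher (Myh4, Acta1, Ckm and Tnnt3; 5 without sedentary control replicate 4) and in PBMT mice 3 of 7 (Myh4, Acta1 and Tnnt3). Myh4, the fastest myosin heavy chain, had a log2 fold change of 0.86 ± 0.17 (SE, adjusted p = 0.00101) in control mice, with overlap, and 0.65 ± 0.17 (SE, adjusted p = 0.00628) in PBMT mice, without. In the order sedentary controls, sedentary PBMT mice, fatigued controls and fatigued PBMT mice, the 7 summed to 48773 ± 5567, 50774 ± 3855, 61900.5 ± 4802 and 60844 ± 5251 CPM per kilobase. Of 6 slow muscle markers 1 was called higher, the calcium pump Atp2a2, at 0.53 ± 0.11 (SE, adjusted p = 0.00177) in control mice, without overlap, and 0.53 ± 0.11 (SE, adjusted p = 0.00103) in PBMT mice, with it. For a list of 6, a count of 1 is near the shares over all genes. The slow markers summed to 12.0 ± 1.91, 12.7 ± 2.85, 17.1 ± 9.33 and 21.01 ± 14.3 CPM per kilobase in that order. Myh2, the myosin of oxidative fast fibers, averaged 114 ± 36.7, 90.8 ± 29.3, 83.9 ± 24.5 and 89.0 ± 18.4 CPM per kilobase and was not called.

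In the same order of groups, the 3 macrophage markers, led by Cd68, summed to 4.85 ± 1.99, 3.26 ± 1.08, 5.95 ± 1.46 and 6.68 ± 3.68 CPM per kilobase. In fatigued against sedentary PBMT mice 3 of 3 were called higher by edgeR, against 14.1% of all genes tested, among them Csf1r at a log2 fold change of 1.13 ± 0.24 (SE, adjusted p = 0.00135), with overlap. The 2 endothelial markers, led by Cdh5, summed to 34.3 ± 3.28, 35.0 ± 7.13, 40.6 ± 6.30 and 41.8 ± 3.20 CPM per kilobase, with Pecam1 called higher in PBMT mice at 0.40 ± 0.11 (SE, adjusted p = 0.0109). The 4 keratinocyte markers, led by Krt10, summed to 1.33 ± 0.616, 3.23 ± 4.13, 1.06 ± 0.599 and 0.781 ± 0.153 CPM per kilobase, and the sedentary PBMT sum was 1.63 ± 1.41 without replicate 4 of that group. Krt10 was the only one tested and was called lower in PBMT mice at -1.52 ± 0.38 (SE, adjusted p = 0.00493), or -0.79 without sedentary PBMT replicate 4, a call lost with limma (adjusted p = 0.103). The 3 brown fat markers summed to 0.728 ± 0.0979, 0.638 ± 0.234, 0.919 ± 0.207 and 1.61 ± 1.07 CPM per kilobase, nearly all of it Cidea, which was called higher in PBMT mice at 1.33 ± 0.30 (SE, adjusted p = 0.00194), while Ucp1 was at 0 in 3 of the 4 groups. No marker of white fat, heart or red cells was called by edgeR, DESeq2 or limma in either comparison, and at an unadjusted p under 0.05 edgeR had 2 red cell markers lower in control mice. White fat markers, led by Adipoq, summed to 4.30 ± 1.21, 4.30 ± 2.58, 6.15 ± 4.82 and 6.35 ± 4.30 CPM per kilobase. Heart markers, led by Myh6, summed to 0.814 ± 0.231, 0.694 ± 0.112, 0.860 ± 0.423 and 0.732 ± 0.261 CPM per kilobase and red cell markers, led by Hbb-bs, to 131 ± 41.6, 126 ± 37.9, 109.6 ± 42.9 and 112 ± 37.5 CPM per kilobase. The PBMT groups overlapped in Pecam1, Krt10 and Cidea. The part of these cell types in the results on the members was not tested.

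Promoters of the members were read for 5 short motifs, on both strands, in the 250 bases before to 50 bases after each gene's start (RefSeq, GRCm38.p6). Of the 87 member symbols, 68 had an entry; among those without were Atp5a1, Atp5mpl, Atp5s, Cox4i1, Cox6a2, Cox6c, Cyc1, Sdhc and Uqcrq. The palindrome CGCATGCG, a core of NRF1 sites, was in 9 member promoters (13.2%, against 2.66% of the 16513 promoters of protein-coding symbols), and the ETS core CCGGAAG in 15 (22.1% against 12.3%). The ERR half-site TCAAGGTCA was in 2 (2.94% against 0.339%), the YY1 core AAGATGGCG in 6 (8.82% against 2.05%) and the CRE palindrome TGACGTCA in 5 (7.35% against 2.42%). At least 1 motif was in 30 members (44.1% against 18.1%). No motif contains another. Among the 40 promoters of members that fell in fatigued controls, 2 held the NRF1 core and 9 the ETS core; among the 26 of tested members not called, 7 and 6 did. A match is a string of letters in a window and was not tested for binding.

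Printed here are the promoters of the 3 members with the largest log2 decreases in fatigued controls, Ndufb2 (chr6:39592315-39592614, plus strand), Atp5k (chr5:108434350-108434649, minus strand) and Atp5l (chr9:44920693-44920992, minus strand), and of Cycs (chr6:50566520-50566819, minus strand), the single cytochrome c gene, which was not called; they were chosen after their values were seen. Each reads 5′ to 3′ along the gene. Capitals mark the matches: a CRE in Ndufb2, an NRF1 core and an ETS core in Atp5k, an NRF1 core and 2 ETS cores in Atp5l, and a CRE and an NRF1 core in Cycs.
Ndufb2: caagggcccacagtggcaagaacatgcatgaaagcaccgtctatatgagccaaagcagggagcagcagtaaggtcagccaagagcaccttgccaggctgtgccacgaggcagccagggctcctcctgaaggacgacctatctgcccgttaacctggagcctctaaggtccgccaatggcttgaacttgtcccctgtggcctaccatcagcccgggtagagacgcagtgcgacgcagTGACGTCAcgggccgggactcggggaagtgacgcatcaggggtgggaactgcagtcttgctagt
Atp5k: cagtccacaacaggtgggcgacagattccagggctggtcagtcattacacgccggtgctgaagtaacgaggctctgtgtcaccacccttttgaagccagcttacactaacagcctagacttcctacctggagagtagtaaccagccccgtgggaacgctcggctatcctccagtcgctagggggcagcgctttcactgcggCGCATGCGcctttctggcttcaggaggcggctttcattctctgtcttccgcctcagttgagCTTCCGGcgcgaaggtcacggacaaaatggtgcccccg
Atp5l: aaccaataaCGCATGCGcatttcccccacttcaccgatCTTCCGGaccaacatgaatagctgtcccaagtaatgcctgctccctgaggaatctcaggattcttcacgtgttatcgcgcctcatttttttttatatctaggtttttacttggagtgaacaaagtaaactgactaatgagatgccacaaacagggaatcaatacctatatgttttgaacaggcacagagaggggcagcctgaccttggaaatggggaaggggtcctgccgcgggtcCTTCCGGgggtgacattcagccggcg
Cycs: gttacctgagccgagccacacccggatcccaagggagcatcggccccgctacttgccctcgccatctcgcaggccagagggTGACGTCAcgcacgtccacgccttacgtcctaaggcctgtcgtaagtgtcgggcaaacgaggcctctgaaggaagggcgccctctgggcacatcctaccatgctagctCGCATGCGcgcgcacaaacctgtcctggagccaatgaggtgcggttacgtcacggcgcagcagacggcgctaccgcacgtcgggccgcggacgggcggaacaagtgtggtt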

How the data were processed

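Raw whole-number counts per Ensembl gene, 1 file per mouse, were deposited by the authors with no normalization. The labels name Trimmomatic, STAR 2.7.1a, Picard 2.20.4, StringTie 2.0.4, featureCounts 1.6.0, HTSeq and the build GRCm38, without saying which made the counts, and give no strand setting, multimapping rule or annotation release. Totals ran from 43271093 to 46904076 in sedentary controls, and the other groups' totals are in the report. Of 55487 identifiers, 55141 matched GENCODE M21, which gave symbols and lengths.

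Tests used R 4.3.3 and edgeR 4.0.16 (TMM, filterByExpr with a minimum count of 10, robust quasi-likelihood fit, two-sided), with p adjusted over every tested gene by Benjamini-Hochberg. PBMT was compared with control within each project (6 against 6). Fatigued against sedentary mice, and the difference of the PBMT effects, came from 1 model of all 24 mice with no replicate block. Alternatives were DESeq2 1.42.0, its size factors, limma 3.58.1 voom with sample quality weights, no filter on low counts, TMM without the members and mitochondrially encoded genes, a replicate block, unadjusted p, each mouse's loess trend on transcript length or GC content removed, all 24 mice in a single model for PBMT, and each mouse left out. Levels were also scaled by the longest transcript. The pipeline was tested on simulated data, and no sample was left out.

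Members, lists and markers were chosen with earlier results of these data known. Named members were drawn from the 10 with the smallest p in each comparison, isoform families and subunits listed as catalytic or electron-carrying. Others were the highest and lowest of each complex per length and those failing the filter. Not all of the 10 were printed for PBMT against control. Of other lists the regulators were read in full and the genes with the smallest p elsewhere. Intervals and floors cover counting error only.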

Additional observations from a re-analysis of the deposited data

Results flagged for a closer look

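In groups of 6 mice, the highest or lowest value was set against the gap to its nearest neighbor (Dixon's criterion). Of 128 groups looked at, 19 had such a value, 5 of them in sedentary control replicate 4. Chance picks out about 1 in 20 groups, and the measures share genes and mice, so the values are not independent. No explanation was tested.

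In sedentary control replicate 4 the mitochondrially encoded protein genes summed to 19755 CPM per kilobase, with the next mouse at 106360.0, and took 2.62% of counts. In the same mouse Cox6a1 stood at 26.7 CPM and Atp5a1 at 3348 CPM, both the highest of the group, and Atp5c1 at 581 CPM, the lowest. Sedentary control replicate 3 had the highest complex II sum, 961 CPM per kilobase, with the next at 848.

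Sedentary PBMT replicate 6 was far below its group in several measures. Its sums in CPM per kilobase were 647 for complex II, 3317 for ATP synthase and 13685 for all members, where the next mouse had 773, 4014 and 16495. Mitochondrially encoded protein genes took 12.6% of its counts. Its CPM was 183 for Ndufs3, 263 for Uqcrq, 447.6 for Uqcrfs1, 643 for Atp5c1 and 1962 for Atp5a1.

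In the fatigued groups, control replicate 6 was lowest in Sdhb at 353 CPM and in Cox6b1 at 286 CPM. Control replicate 5 was highest in Cox6a1 at 17.8 CPM. PBMT replicate 1 was highest in Ndufb11 at 272 CPM, with the next at 222.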

How the results depend on the processing

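For PBMT in sedentary mice, 0 members were called by edgeR, DESeq2 and limma and in all other alternatives with an adjusted p, and 15 at an unadjusted p under 0.05. For the difference of the PBMT effects the unadjusted p gave 1 member. In fatigued against sedentary control mice the 49 called members became 26 with the trend on transcript length removed, 25 of them shared with the 49, and the median log2 fold change became -0.17 from -0.29. Leaving out 1 mouse gave 24 to 53 members there and 20 to 37 in PBMT mice. Per length of the longest transcript, all members summed to 24862 CPM per kilobase in sedentary controls, 22574 in sedentary PBMT mice, 20676 in fatigued controls and 19987 in fatigued PBMT mice, in the same order as with merged exons. The cause was not tested, apart from the length used, which sets the last values.

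With the replicate number as a paired block, 44 members were called in control mice (43 of them among the 49), 31 in PBMT mice and 0 for PBMT in sedentary or fatigued mice. Mice of the same number correlated from -0.072 to 0.066 between the sedentary groups and from -0.085 to 0.33 between the fatigued groups, and not every mouse correlated best with its own number, so the numbers were not read as pairs.

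Direction was kept in each of the 32 alternatives by 45 of the 49 members called in fatigued against sedentary control mice. In PBMT mice 26 of the 29 called members did so. Of the single genes with a printed log2 fold change, 2 turned direction. Cox6a1 in fatigued against sedentary control mice was 0.070 with the length trend removed and from -0.37 to 0.022 with 1 mouse left out, and Vdac3 in PBMT mice was 0.055 with the GC trend removed. In fatigued against sedentary control mice 974 of 992 gene values under alternatives kept direction and side of the threshold, and in PBMT mice 970 of 992. For PBMT in sedentary mice 146 of 147 did, in fatigued mice 21 of 21, and for the difference 64 of 64. Complex levels without sedentary control replicate 4 were an alternative chosen after seeing the data. Depth limits Cox7b2, Cox6b2 and other members near 0.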
